A study of Mus musculus with 6 samples.

Results

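The transcription factors DLX1, DLX2, DLX5, DLX6, LHX6, SP8, SP9, NR2F2 (also called COUP-TFII) and PROX1 mark the interneuron lineage of the forebrain. They were followed here in cultured mouse cortical cells after knockdown of the neuronal transcription factor NEUROD2. A row of the deposited table was taken as a member's locus when it shared at least 0.5 of the combined length of the row and the gene's annotated span. Of 9 genes listed, 4 had such a locus (Dlx5, Lhx6, Sp8 and Sp9), out of 32357 loci in the table. The other 5 (Dlx1, Dlx2, Dlx6, Nr2f2 and Prox1) lay in loci merged with neighbouring genes, and their rows are described without being assigned to a gene.

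The cells came from the cerebral cortex of E14.5 Balb/c embryos. They received shRNA plasmids in the pSuperneoGFP backbone by nucleofection (electroporation of the cell suspension) before plating in medium with serum. The knockdown group held 4 libraries, 2 for each of 2 shRNAs against Neurod2, and the non-silencing group held 2 libraries with a control shRNA. RNA was collected at 4 days in vitro according to the labels, whereas the methods of the study give 5 days. No sorting of transfected cells is described, so the values cover all cells of a culture.

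The table gave 1 pooled level per group for each locus, as FPKM (fragments mapped to a locus, scaled to transcript length and to library size). With 1 value per group there is no spread between replicates, so no difference below carries an SD or a test, and read depth is unknown. The 2 shRNAs also cannot be told apart. In bulk RNA, fewer cells of a type and less RNA per cell cannot be told apart. Neurod2 itself (chromosome 11, 98325417 to 98329645, mm10, minus strand) was at 60.3 FPKM in Neurod2 knockdown cultures and 105 FPKM in non-silencing cultures, a log2 difference of -0.80. Every log2 difference is knockdown minus non-silencing after adding 0.1 FPKM to both levels, which understates the differences of low genes.

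Cortical interneurons arise in the ganglionic eminences of the ventral forebrain and migrate into the cortex, whereas the glutamatergic projection neurons arise in the cortex itself. DLX homeobox proteins act across the eminences and drive GABAergic differentiation. LHX6 acts in cells from the medial eminence, the source of somatostatin and parvalbumin interneurons, whereas SP8, NR2F2 and PROX1 mark interneurons from the caudal eminence, and SP8 and SP9 also act in cells of the lateral eminence that become olfactory bulb interneurons and striatal neurons. Several of these factors have other sites of expression, such as SP8 in progenitors of the cortex and PROX1 in lymphatic endothelium.

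Of the 4 genes with a locus of their own, Dlx5, Sp8 and Sp9 were lower in Neurod2 knockdown cultures by 1.61-fold, 1.88-fold and 1.58-fold, and Lhx6 was 1.57-fold higher, before any pseudocount. Their median log2 difference was -0.62, against -0.03 over the 12800 loci with a mean of at least 1 FPKM. After the pseudocount 3 of the 4 were past 1.5-fold lower and 0 were past 1.5-fold higher. Among all loci with a mean of at least 1 FPKM, 2.42% were past 1.5-fold lower and 2.31% past 1.5-fold higher. Dlx5 and Lhx6 fell under that minimum, so the same shares were taken over the 6501 loci with a mean of 0.5 to 10 FPKM, a range that holds all 4 genes. There, 2.54% were past 1.5-fold lower and 3.11% past 1.5-fold higher. The genes were chosen with earlier results of these data known, so their count is a description and does not set them apart from other genes.

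**Figure D1:**
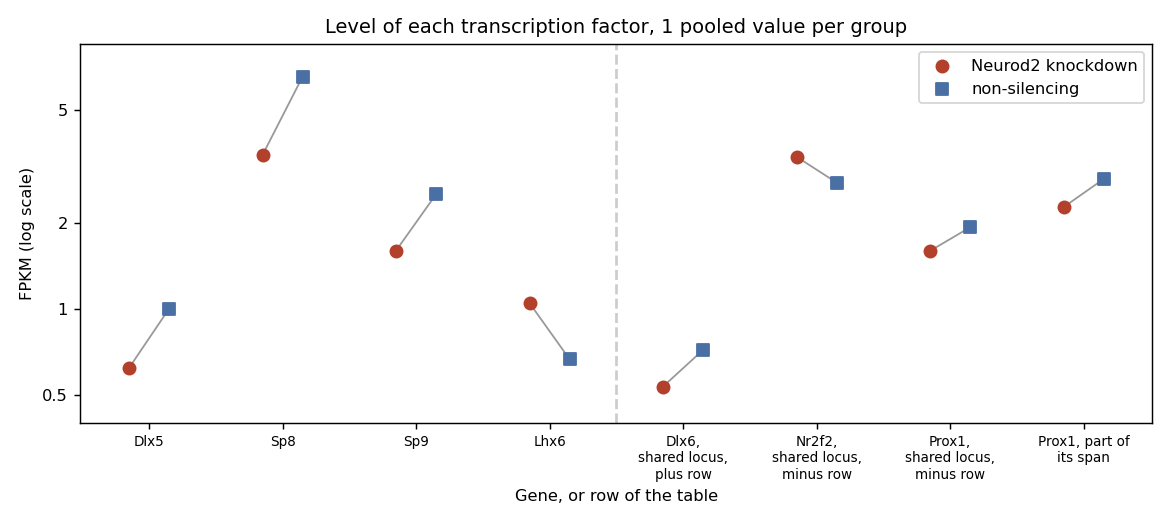
FPKM (log scale) of each gene or row, with the pooled Neurod2 knockdown value as a circle on the left and the pooled non-silencing value as a square on the right; there is 1 value per group and no error bar. Dlx5, Sp8 and Sp9 lie lower in the knockdown and Lhx6 higher, while the 4 rows plotted right of the dashed line, for Dlx6, Nr2f2 and Prox1, differ by less than 1.5-fold.

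Sp8 encodes a zinc finger transcription factor of the SP family. Its locus (chromosome 12, 118846329 to 118852578, plus strand) covered the whole gene as annotated in GENCODE, whose longest coding transcript has 3 exons. The position held 2 rows, and the one on the strand of Sp8, with 3 transcripts, was taken. Sp8 was at 3.47 FPKM in Neurod2 knockdown cultures and 6.53 FPKM in non-silencing cultures. Of the 4 genes it had the highest level in both groups and the largest difference, at a log2 value of -0.89. Among loci with a mean of 0.5 to 10 FPKM, 0.954% were at least as low. It was the one gene of the 4 that stayed past 1.5-fold with a pseudocount of 1 FPKM.

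Sp9 encodes the closest relative of SP8 in this group. Its locus (chromosome 2, 73271926 to 73275771, plus strand) matched the RefSeq span exactly, whereas the GENCODE span runs on to 73284706 and overlaps the gene Cir1 on the other strand. Sp9 thus met the overlap minimum through the RefSeq span only. Sp9 was at 1.60 FPKM in Neurod2 knockdown cultures and 2.53 FPKM in non-silencing cultures, a log2 difference of -0.63. Among loci with a mean of 0.5 to 10 FPKM, 2.20% were at least as low. Sp8 and Sp9 were thus both lower in the knockdown cultures, with the lower expressed Sp9 differing less. Of 4465 windows of 50 bases, the read length, in the longest coding Sp9 transcript, 44 also occurred in Sp5, another SP gene, which was at 0.0916 FPKM in knockdown and 0.0737 FPKM in non-silencing cultures. That GENCODE transcript, at 4514 bases, is longer than the span of the Sp9 row, so not all of its windows lie in the row. None of the 4429 windows of Sp8 occurred in another gene.

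Dlx5 encodes a homeobox protein that acts after DLX1 and DLX2 in GABAergic differentiation. Its locus (chromosome 6, 6877801 to 6882068, minus strand) was at 0.622 FPKM in Neurod2 knockdown cultures and 1.00 FPKM in non-silencing cultures. The log2 difference was -0.61, and 2.29% of loci with a mean of 0.5 to 10 FPKM were at least as low. Dlx5, with a mean of 0.812 FPKM, lies near the lower end of that range, and no share was taken closer to its own level. Dlx5 had the lowest level of the 4 genes in the knockdown cultures. None of the 1374 windows of 50 bases in its longest coding transcript occurred in another gene.

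Lhx6 encodes a LIM homeobox protein that cells of the medial eminence keep as they migrate into the cortex. Its locus (chromosome 2, 36081953 to 36105408, minus strand) matched the gene as annotated in GENCODE, whose longest coding transcript has 10 exons. Lhx6 was at 1.05 FPKM in Neurod2 knockdown cultures and 0.666 FPKM in non-silencing cultures. Its log2 difference was 0.58, which is 1.499-fold after the pseudocount and just under the 1.5-fold line. Among loci with a mean of 0.5 to 10 FPKM, 3.14% were at least as high, and Lhx6, with a mean of 0.857 FPKM, lies near the lower end of that range. Lhx6 was the only one of the 4 genes with a higher level in the knockdown, and its place in the order changed with it. In knockdown cultures the order from high to low was Sp8, Sp9, Lhx6 and Dlx5, against Sp8, Sp9, Dlx5 and Lhx6 in non-silencing cultures, and with no replicate spread no neighbours in either order can be said to differ. Of its 3432 windows of 50 bases, 65 also occurred in transcripts of other genes.

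**Figure D2:**
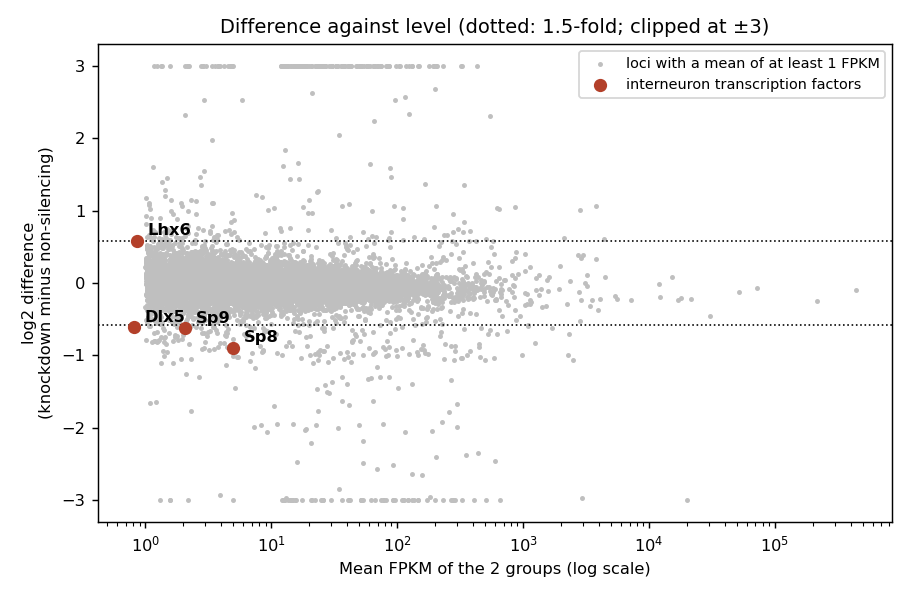
Each grey point is 1 of the 12800 loci with a mean of at least 1 FPKM, with the mean of both groups on the x axis (log scale) and the log2 difference, knockdown minus non-silencing, on the y axis, clipped at 3 in both directions. Dlx5 at -0.61, Sp9 at -0.63 and Sp8 at -0.89 lie below the lower dotted 1.5-fold line and Lhx6 at 0.58 lies at the upper one, all 4 at the low-level end of the plot.

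**Figure D3:**
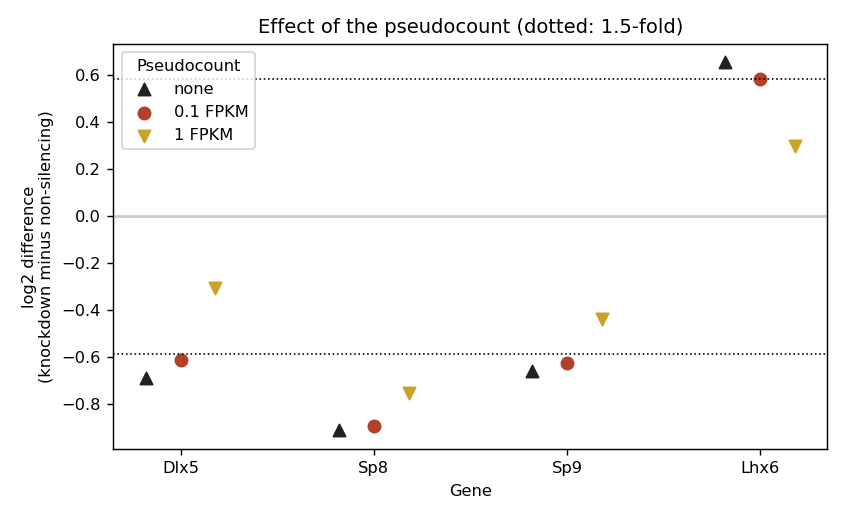
Log2 difference (y axis, knockdown minus non-silencing) of the 4 genes with no pseudocount, 0.1 FPKM and 1 FPKM added to both levels; dotted lines mark 1.5-fold. Lhx6 is above the upper line with no pseudocount (0.65) and under it with 1 FPKM (0.30), and Dlx5 and Sp9 move inside the lines with 1 FPKM, at -0.30 and -0.44.

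NEUROD2 belongs to the bHLH proteins, which bind the E-box, CANNTG. The annotated starts (GRCm38.p6, 250 bases before to 50 bases after the start) of the genes with a locus of their own were therefore searched for it. The table of starts held 7 of the 9 listed genes, among them Lhx6 and Sp8 with 3 starts each and Sp9 with 1. The 4 windows shown are the outermost listed start of each of Lhx6, Sp9 and Sp8, and the next start of Sp8, with each CANNTG in capitals. The RefSeq spans of Lhx6 and Sp8 begin further out, at 36105992 and 118846288, and no window was placed on those positions.
Lhx6, chr2:36105359-36105658, minus strand: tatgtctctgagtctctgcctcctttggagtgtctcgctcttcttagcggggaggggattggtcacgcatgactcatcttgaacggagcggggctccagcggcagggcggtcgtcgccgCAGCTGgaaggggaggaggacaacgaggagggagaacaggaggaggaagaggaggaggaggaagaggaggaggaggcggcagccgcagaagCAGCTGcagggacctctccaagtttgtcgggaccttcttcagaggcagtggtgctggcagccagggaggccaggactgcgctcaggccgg
Sp9, chr2:73271676-73271975, plus strand: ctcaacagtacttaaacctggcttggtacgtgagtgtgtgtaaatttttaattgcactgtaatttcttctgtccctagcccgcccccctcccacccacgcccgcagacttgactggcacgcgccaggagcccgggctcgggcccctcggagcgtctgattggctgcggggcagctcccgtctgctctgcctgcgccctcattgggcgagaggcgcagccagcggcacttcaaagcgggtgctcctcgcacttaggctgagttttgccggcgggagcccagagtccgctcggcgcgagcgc
Sp8, chr12:118846079-118846378, plus strand: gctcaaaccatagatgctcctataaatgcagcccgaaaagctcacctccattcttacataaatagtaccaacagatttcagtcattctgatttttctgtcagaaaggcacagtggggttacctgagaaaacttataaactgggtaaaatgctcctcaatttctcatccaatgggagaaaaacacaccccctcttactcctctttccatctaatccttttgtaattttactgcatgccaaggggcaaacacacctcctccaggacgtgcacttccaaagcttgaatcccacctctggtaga
Sp8, chr12:118846983-118847282, plus strand: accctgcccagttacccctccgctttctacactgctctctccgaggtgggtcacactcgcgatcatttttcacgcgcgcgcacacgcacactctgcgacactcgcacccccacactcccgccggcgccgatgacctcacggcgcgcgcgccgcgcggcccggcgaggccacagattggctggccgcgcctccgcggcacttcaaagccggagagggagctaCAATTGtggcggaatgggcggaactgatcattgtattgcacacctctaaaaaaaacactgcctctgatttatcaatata

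The Lhx6 window held 2 matches, both CAGCTG, and the second Sp8 window held 1, CAATTG. The Sp9 window and the outermost Sp8 window held 0. Of the starts not shown, the third of Sp8 held 1 match and both of Lhx6 held 0. CANNTG reads as CANNTG on either strand, and 72.3% of the 32851 windows in the table held at least 1 match. CAGATG or its complement CATCTG was in none of the 7 windows of these genes and in 17.2% of all windows, and CAGCTG was in 1 of the 7 and in 16.3% of all windows. A match is only a run of letters in a short window. The study had earlier reported that most sites bound by NEUROD2 lay away from promoters. Windows at gene starts do not cover sites of that kind, so a count of 0 says nothing about them.

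Prox1 encodes a homeobox protein of caudal eminence interneurons and of the hippocampal granule cells. A row lying wholly inside its annotated span (chromosome 1, 190118261 to 190121147) was at 2.28 FPKM in Neurod2 knockdown cultures and 2.86 FPKM in non-silencing cultures, a log2 difference of -0.32. The rest of the gene lay in a locus merged with its antisense neighbour Prox1os (190121777 to 190217276), whose overlap of 0.494 fell just below the minimum of 0.5. That locus held 2 rows. The numbers of the rows run over the plus strand of each chromosome before the minus strand, with 0 exceptions in 12487 single-gene loci on 21 chromosomes, and this gives each row a strand. The minus-strand row, the strand of Prox1, was at 1.60 FPKM in knockdown and 1.94 FPKM in non-silencing cultures. The plus-strand row, the strand of Prox1os, was at 0.208 FPKM in knockdown and 0.384 FPKM in non-silencing cultures. Whether the libraries kept strand is not given in the sources used here, so reads from a gene and its antisense partner may not be told apart.

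Nr2f2 encodes an orphan nuclear receptor of caudal eminence interneurons. It shared a locus (chromosome 7, 70351950 to 70411146, overlap 0.250) with the noncoding genes B130024G19Rik and Gm28258. The row on the minus strand, that of Nr2f2 and Gm28258, was at 3.42 FPKM in Neurod2 knockdown cultures and 2.78 FPKM in non-silencing cultures, a log2 difference of 0.29. The plus-strand row was at 0.151 FPKM in knockdown and 0.163 FPKM in non-silencing cultures. Markers of endothelial and lymphatic cells, which can also express NR2F2 or PROX1, were near 0. Their summed levels were 0.327 FPKM in knockdown and 0.147 FPKM in non-silencing cultures over 6 of 6 genes. Among them, the lymphatic marker Lyve1 was at 0.0260 FPKM in knockdown and listed at 0 in non-silencing cultures.

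Dlx6 lay in a locus of 3 rows (chromosome 6, 6820546 to 6869533, overlap 0.107) with Dlx6os1, a long noncoding RNA transcribed across it on the other strand. The single plus-strand row, the strand of Dlx6, was at 0.535 FPKM in Neurod2 knockdown cultures and 0.719 FPKM in non-silencing cultures, a log2 difference of -0.37. The higher of the minus-strand rows, the strand of Dlx6os1, was at 5.37 FPKM in knockdown and 6.40 FPKM in non-silencing cultures, a log2 difference of -0.25, and the other was at 0.121 FPKM in knockdown and 0.124 FPKM in non-silencing cultures. All 3 rows were thus lower in the knockdown by less than 1.5-fold. Dlx5, the neighbour of Dlx6 in the genome, differed by more.

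Dlx1 and Dlx2, which act early in GABAergic fate, lay in 1 merged locus of 515 kb (chromosome 2, 71389260 to 71903858) together with Dlx1as and several unrelated genes. Its 12 rows, 8 on the plus and 4 on the minus strand, could not be assigned. The 4 minus-strand rows, the strand of Dlx2 and Dlx1as, gave 4 pairs of levels. One was at 1.16 FPKM in knockdown and 0.725 FPKM in non-silencing cultures. Another was at 3.06 FPKM in knockdown and 3.59 FPKM in non-silencing cultures. The third was at 2.44 FPKM in knockdown and 3.31 FPKM in non-silencing cultures, and the last was at 0.0465 FPKM in knockdown and 0.0464 FPKM in non-silencing cultures. The minus-strand rows thus pointed in both directions, and no direction for Dlx2 can be read from them. Of the 8 plus-strand rows, the strand of Dlx1 and of several unrelated genes, 2 were listed at 0 in both groups and 1 was at 0.0154 FPKM in knockdown and 0.0139 FPKM in non-silencing cultures. The other 5 ranged over 7.81 to 30.9 FPKM in knockdown and 10.8 to 32.6 FPKM in non-silencing cultures, with 4 lower and 1 higher in the knockdown and none past 1.5-fold. Which of them holds Dlx1 is not known.

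The genes that accompany these factors in interneurons were set beside them, counting genes with a mean of at least 1 FPKM and a single row. Among genes of GABA synthesis and transport, 1 gene reached that level and it was not past 1.5-fold. This was Gad2, which encodes an enzyme that makes GABA, at 2.18 FPKM in Neurod2 knockdown cultures and 2.49 FPKM in non-silencing cultures. The vesicular GABA transporter Slc32a1, under the minimum, was at 0.770 FPKM in knockdown and 0.657 FPKM in non-silencing cultures. Gad2 and Slc32a1 both differed by less than 1.5-fold. Of the same list, Gad1 was not matched to a row and Abat had several rows, so neither was counted.

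Among 6 other regulators of the medial eminence lineage, 0 were past 1.5-fold in either direction and the median log2 difference was -0.04. Sox6, which acts downstream of LHX6, was at 10.7 FPKM in Neurod2 knockdown cultures and 10.5 FPKM in non-silencing cultures. These levels are well above those of Lhx6, and which cells made the Sox6 RNA was not tested. The progenitor factor Nkx2-1, which induces Lhx6, was at 0.0270 FPKM in knockdown and listed at 0 in non-silencing cultures, and Lhx8 was at 0.0197 FPKM in knockdown and listed at 0 in non-silencing cultures. Nkx2-1 and Lhx8 were thus at or near 0, while Lhx6 itself had a level in both groups.

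Among 7 regulators of the lateral eminence and of olfactory interneurons, 1 was past 1.5-fold lower and 0 were past 1.5-fold higher, with a median log2 difference of 0.02. The gene past the line was Gsx1, a progenitor homeobox gene, at 1.07 FPKM in Neurod2 knockdown cultures and 1.69 FPKM in non-silencing cultures. Its relative Gsx2 was at 1.82 FPKM in knockdown and 2.26 FPKM in non-silencing cultures. Meis2, a homeobox gene of the lateral eminence lineage, was at 61.2 FPKM in knockdown and 60.5 FPKM in non-silencing cultures. Among 3 genes of the caudal eminence (Nr2e1, Npas1 and Cnr1) 0 were past 1.5-fold, and the median log2 difference was -0.02. Cnr1 was at 113 FPKM in knockdown and 131 FPKM in non-silencing cultures. Under the minimum, Htr3a was at 0.403 FPKM in knockdown and 0.345 FPKM in non-silencing cultures, and Adarb2 at 0.664 FPKM and 0.481 FPKM. Apart from Gsx1, no gene of these lists with a mean of at least 1 FPKM and a single row was past the line. Which cells made these transcripts was not tested, so the levels need not follow the companions of Sp8 and Sp9.

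Among 7 markers of interneuron subtypes, 4 were past 1.5-fold higher and 0 past 1.5-fold lower, with a median log2 difference of 0.69. Over all loci with a mean of at least 1 FPKM, 2.31% were past 1.5-fold higher. Nos1 was at 5.10 FPKM in knockdown and 4.73 FPKM in non-silencing cultures, and Cort at 1.38 FPKM and 1.10 FPKM, both less than 1.5-fold higher. Sst, the neuropeptide somatostatin of interneurons that depend on LHX6, was at 6.55 FPKM in Neurod2 knockdown cultures and 3.29 FPKM in non-silencing cultures. The calcium-binding protein genes Calb1 and Calb2 differed in the same direction. Calb1 was at 2.01 FPKM in knockdown and 0.703 FPKM in non-silencing cultures, and Calb2 was at 6.59 FPKM in knockdown and 3.54 FPKM in non-silencing cultures. Ndnf was at 4.09 FPKM in knockdown and 2.49 FPKM in non-silencing cultures. Cck, the most abundant of the markers that could be read (the altered cells of Npy could not), was at 18.5 FPKM in knockdown and 25.0 FPKM in non-silencing cultures. Pvalb, the marker of the other LHX6-dependent class, was listed at 0 in knockdown and was at 0.0445 FPKM in non-silencing cultures. It was marked as having too few reads to test, so no direction for that class is read from it.

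Calb2 and Ndnf are also genes of Cajal-Retzius cells, the early reelin-secreting neurons of the cortical surface. All 6 genes of that list were higher in the knockdown, with summed levels of 36.3 FPKM in Neurod2 knockdown cultures and 18.4 FPKM in non-silencing cultures. Trp73, Lhx1 and Lhx5 were under 1 FPKM in both groups and marked as having too few reads to test, and most of the sum was Reln. Reln was at 24.3 FPKM in knockdown and 11.7 FPKM in non-silencing cultures. Markers of projection neurons summed to 497 FPKM in knockdown and 493 FPKM in non-silencing cultures over 9 genes, of which Neurod6 alone gave 290 FPKM and 274 FPKM. Of the 9, 5 were lower and 4 higher in the knockdown, and 0 were past 1.5-fold. The largest differences were those of Neurog2 (13.4 FPKM in knockdown and 18.4 FPKM in non-silencing cultures) and Eomes (16.1 FPKM and 21.2 FPKM). Markers of radial glia and dividing cells summed to 433 FPKM in knockdown and 448 FPKM in non-silencing cultures over 8 genes. Oligodendrocyte precursor markers had a summed level of 101 FPKM in knockdown and 108 FPKM in non-silencing cultures over 5 genes. All 5 were lower, with a median log2 difference of -0.33, and 0 were past 1.5-fold. The astrocyte markers with a single row summed to 126 FPKM in knockdown and 145 FPKM in non-silencing cultures over 2 of 4 genes, of which Gfap was at 35.1 FPKM in knockdown and 57.4 FPKM in non-silencing cultures and Slc1a3 at 90.4 FPKM in knockdown and 87.5 FPKM in non-silencing cultures, so the lower sum came from Gfap alone. The fibroblast and mural list summed to 4.98 FPKM in knockdown and 3.73 FPKM in non-silencing cultures over 6 genes, and its 2 genes with a mean of at least 1 FPKM were not past 1.5-fold. Below that mean, the collagen genes Col1a1 (0.975 FPKM in knockdown and 0.125 FPKM in non-silencing cultures) and Col3a1 (0.765 FPKM in knockdown and 0.171 FPKM in non-silencing cultures) were higher, whereas Col1a2 was at 0.152 FPKM in knockdown and 0.150 FPKM in non-silencing cultures. The microglial list summed to 0.330 FPKM in knockdown and 0.225 FPKM in non-silencing cultures over 3 genes. The part of these cell types in the levels of Lhx6, Sp8, Sp9 and Dlx5 was not tested.

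**Figure D4:**
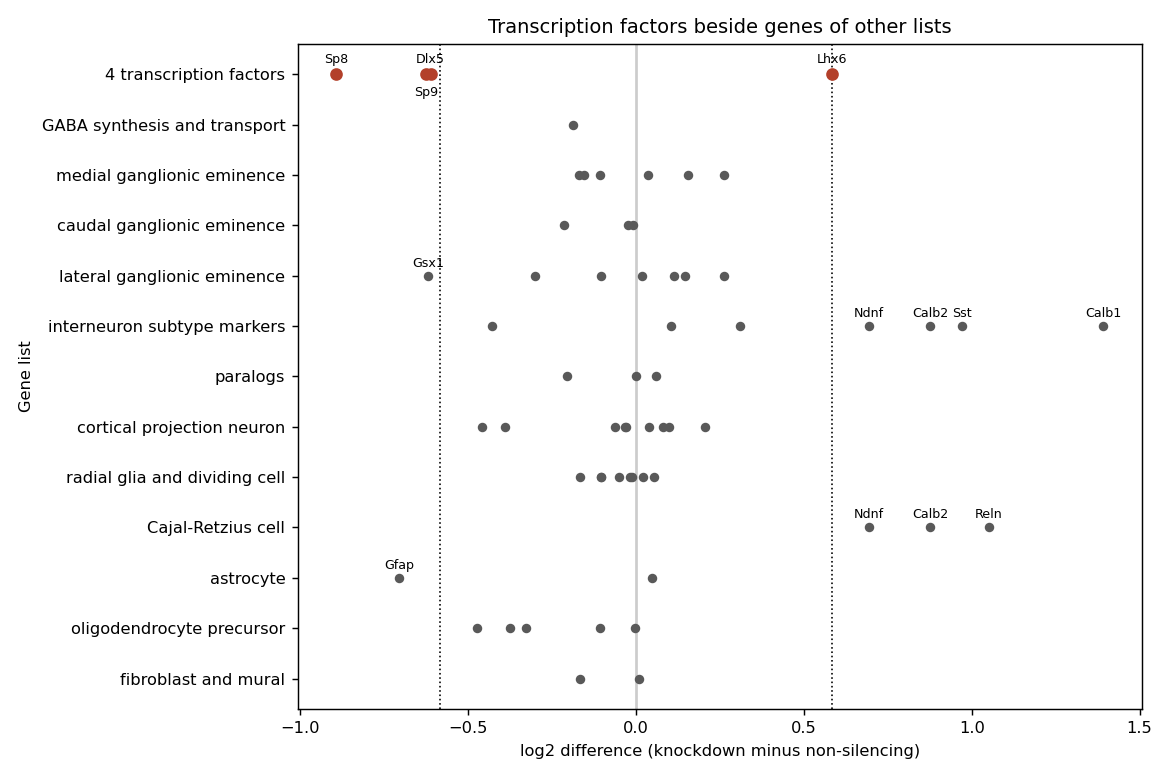
Log2 difference (x axis, knockdown minus non-silencing) of the 4 transcription factors (top) and of the single-row genes with a mean of at least 1 FPKM in each list; each point is 1 gene, dotted lines mark 1.5-fold, and genes past them are named. Dlx5, Sp8, Sp9, Gsx1 and Gfap lie left of the lower line, and Sst, Calb1, Calb2, Ndnf and Reln lie right of the upper one.

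Of 15 listed relatives and antisense neighbours of the members, 7 had a single row, and these gave little signal or small differences. Nr2f1, Dlx4 and Sp2 were among those not matched to a row. Sp3, Sp6 and Prox2 were among those with several rows and are not counted. Dlx3 was at 0.00609 FPKM in Neurod2 knockdown cultures and listed at 0 in non-silencing cultures, and Sp7 was at 0.0440 FPKM in knockdown and 0.0162 FPKM in non-silencing cultures. The widely expressed Sp1 was at 13.1 FPKM in knockdown and 12.6 FPKM in non-silencing cultures, and Sp4 was at 14.4 FPKM in both. Nr2f6, a relative of Nr2f2, was at 12.8 FPKM in knockdown and 14.8 FPKM in non-silencing cultures. Among the 3 relatives with a mean of at least 1 FPKM, 0 were past 1.5-fold in either direction.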

How the data were processed

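Libraries of total RNA from primary cortical cultures were sequenced as 50 base single-end reads. Per the labels, the authors aligned reads with TopHat and obtained FPKM levels with Cufflinks and Cuffdiff on mm10 (no versions were stated). The deposited table holds 1 FPKM per locus and group, pooled over libraries. Its remaining columns hold the log2 fold change, test statistic, p-value, q-value and significance call of the authors' comparison, and none of these is reported.

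A spreadsheet had turned some FPKM cells into clock times. Of 32357 loci, 27315 were unaltered and 4933 were restored, where the reading of the altered cells had to return the deposited log2 ratio to within 2e-05. That column served only to choose among readings, and 109 loci stayed unread. In simulated altered loci, 99.4% of 1086 came back exactly and 0 came back wrong. The 4 genes with their own locus needed no restoring.

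Spans came from GENCODE M21 and RefSeq (GRCm38.p6), and GEO labels gave the groups. Named genes were the 9 members, Neurod2, and in each list up to 5 genes of highest mean and those past 1.5-fold. Genes outside that rule (Nkx2-1, Lhx8, Slc32a1, Pvalb, Cort, Htr3a, Neurog2, Lhx1, Dlx3, Sp5, Sp7 and those of scarce cell types) were named after their values were seen. A list gene counted when a single row, not at 0 in both groups, reached the overlap of 0.5. Some list genes are not reported here, and counts leave them out. Members, lists and thresholds were chosen with earlier results of these data known. A planned identity between member proteins was not computed, because no protein sequences were used here. Scripts ran in Python 3.11.15 with pandas 2.3.3, numpy 2.4.6 and matplotlib 3.10.9. Alternatives changed the pseudocount, centring, overlap, fold and filters.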

Additional observations from a re-analysis of the deposited data

Results flagged for a closer look

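A second row at the Sp8 position, on the minus strand opposite to Sp8, was at 0.178 FPKM in Neurod2 knockdown cultures and 0.00648 FPKM in non-silencing cultures, a signal outside the comparisons above that exceeded the control level. It carries 1 transcript, and the table marks it as having too few reads to test. Its cause was not tested.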

How the results depend on the processing

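All 4 genes kept their direction under every alternative run. Sp8 stayed past 1.5-fold lower under each, from -0.75 with a pseudocount of 1 FPKM to -0.91 with none. With a pseudocount of 1 FPKM, Dlx5 (-0.30) and Sp9 (-0.44) no longer passed 1.5-fold, which left 1 of the 4 genes lower. Centring on the median of all loci put Dlx5 (-0.58) just inside the line and Lhx6 (0.61) past it. Without a pseudocount Lhx6 passed at 0.65, and the count higher, recounted this way only after seeing the data, became 1. At the lower planned fold threshold the count higher was also 1, and at 2-fold the count lower was 0. With no filter on low values, 3.86% of all loci were past 1.5-fold higher. Adding the strand-matched rows at Dlx6 and Nr2f2 and both minus-strand rows at Prox1, also chosen later, gave a median of -0.34. It left 3 lower and 0 higher. Prox1 thus entered more than once, and these rows are not otherwise assigned to a gene. No paired analysis was possible because the table holds 1 pooled value per group, and for the same reason no library could be left out. The read depth behind these levels is unknown.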
